A study of Caenorhabditis elegans with 22 samples.

Results

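Whole adult Caenorhabditis elegans that lived on agar plates with 100 nM rotenone were compared at 10 days and at 5 days after L4, the last larval stage. The comparison rests on 6 of the 22 libraries of the series, 3 from rotenone worms at day 10 and 3 from rotenone worms at day 5, chosen by their labels alone. All genes of the deposited count table entered it except 20 genes for ribosomal RNA (rrn- genes), which left 45441 genes, and 16827 of them had enough counts to be tested. The other libraries came from rotenone worms at days 1 and 20 and from worms on plates with only the solvent DMSO at days 1, 5, 10 and 20, with 3 libraries per group, or 2 at day 20. DMSO worms at day 10 and at day 5 gave the same age comparison without rotenone, and they share no library with the rotenone comparison. The strain, the bacteria on the plates and the age at which treatment began are not given in the sources used here.

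Rotenone blocks complex I of the mitochondrial respiratory chain, the enzyme that passes electrons from NADH to ubiquinone. The body of an adult worm no longer divides its somatic cells, and a self-fertilising hermaphrodite stops laying fertile eggs once its own sperm are used up, while its intestine goes on making yolk protein. Its outer cover, the cuticle, is built of collagens secreted by the epidermis, largely during the moults and in young adults. Defence against microbes rests on lysozymes, C-type lectins and saposin-like proteins of the intestine and on small antimicrobial peptides of the epidermis, and signalling peptides of the insulin, FMRFamide-like and other neuropeptide families come largely from neurons.

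Without rrn- genes the libraries held 50733202, 55373281 and 68746493 counts at day 10 and 63741521, 25747071 and 27799184 counts at day 5. The labels say whole animals, and defining markers of muscle, pharynx, intestine, epidermis, neurons, germline, oocytes and coelomocytes were all detected. Of 4 sperm markers msp-3 was at 0 in all 6 libraries, spe-11 was higher at day 10 (1.80 ± 0.24, adjusted p = 1.48e-05) and spe-9 and gsp-3 did not pass, and their summed level was 1.87 to 2.71 CPM (counts-per-million units) at day 10 and 0.703 to 1.17 CPM at day 5. Among 3 male fate markers lov-1 and her-1 were higher at day 10 and pkd-2 did not pass the test, and their summed level was 1.98 to 2.39 CPM at day 10 and 0.664 to 0.943 CPM at day 5. In rotenone day 5 replicate 2 the rrn- genes took 17.6% of the counts, against 0.572 to 2.71% in the other 21 libraries. On the third principal component of all libraries, replicate 1 stood apart within both day 10 groups, at -38.3 for rotenone (replicates 2 and 3 at -25.5 and -19.04) and at -77.0 for DMSO. The labels do not say whether replicates were separate cultures, so p-values measure the spread between these libraries, which may be technical.

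At day 10 rotenone worms had far less mRNA for cuticle collagens than at day 5, and 18 of 37 muscle genes and 27 of 66 UDP-glucuronosyltransferase genes were lower. They had more mRNA for most epidermal antimicrobial peptides and for many insulin-like, FMRFamide-like and other neuropeptides, F-box proteins and nuclear hormone receptors. In edgeR's quasi-likelihood test with Benjamini-Hochberg adjustment (adjusted p under 0.05), 3680 of 16827 genes passed, which is 21.9%. Of these, 2127 were higher at day 10 (12.6% of the tested genes) and 1553 were lower (9.23%). The median log2 fold change over all tested genes was 0.03. Without DMSO day 10 replicate 1, which is in neither group but enters the shared filter, scaling and estimate of spread, 2457 genes were lower. Falls reached further than rises: 46 genes fell and 21 rose by over 4 on the log2 scale, and 248 fell and 179 rose by over 2. All counts of list members below are read against 12.6% higher and 9.23% lower. Genes whose 3 day 10 libraries all lay above or all below the 3 day 5 libraries were 41.4% of those tested, 23.5% higher and 17.9% lower.

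**Figure D1:**
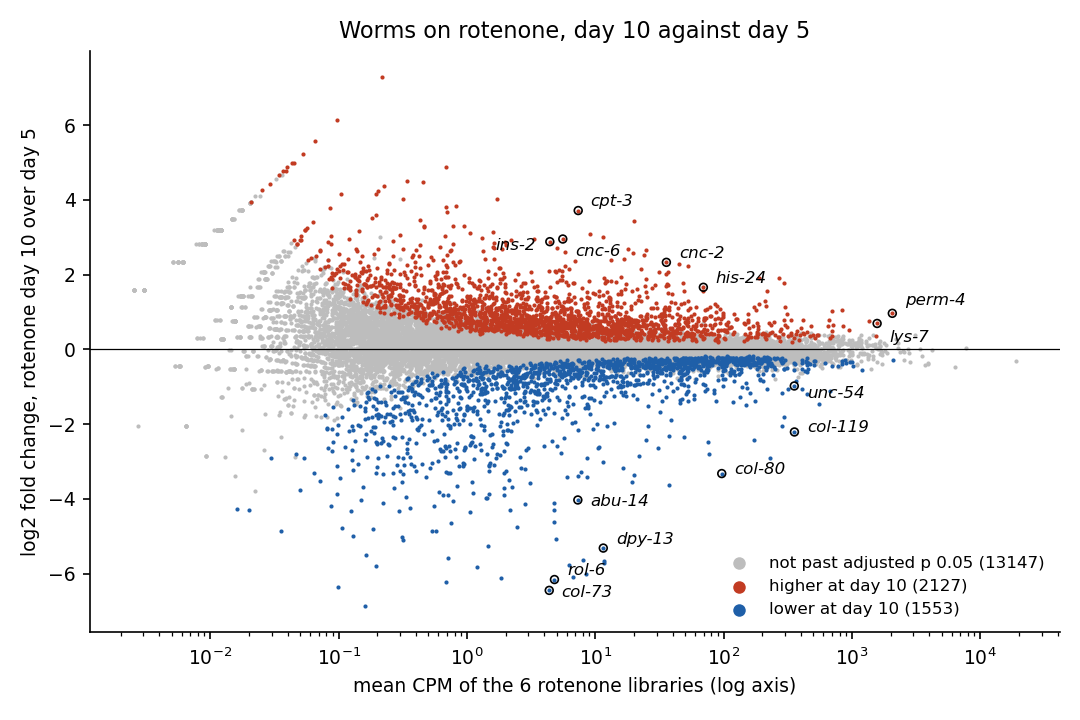
Log2 fold change of rotenone day 10 over rotenone day 5 (vertical axis) against mean CPM over the 6 libraries (horizontal axis, log scale) for the tested genes, 16 of which have a mean of 0 and are not drawn. Genes that passed the test are coloured by direction, 2127 higher and 1553 lower at day 10, and the labelled collagens lie among the deepest falls, down to a log2 fold change of -6.45 for col-73.

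Cuticle collagens made up 22 of the 46 genes that fell by over 4 on the log2 scale. Of 154 tested collagens out of 176 in the table, 87 were lower at day 10 and 9 were higher, with a median log2 fold change of -1.32. Of those that fell, 80 fell by over 1 and 61 by over 2 on the log2 scale. The summed level of the list was 2026 to 2308 CPM in day 10 worms and 5624 to 6690 CPM in day 5 worms. In 92 of the 154 every day 10 library lay below every day 5 library. Among genes with a gene-class name and a mean of at least 50 counts over the 6 libraries, here called well counted, the 10 largest falls were all collagens: col-73, rol-6, col-90, col-17, sqt-1, dpy-5, dpy-4, col-41, dpy-13 and rol-8.

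The collagen rol-6 (chromosome II, 8733050 to 8734239), whose mutants roll as they move, had 0.201, 0.109 and 0.0924 CPM in the day 10 libraries, against 13.4, 8.83 and 6.18 CPM in the day 5 libraries. Every day 10 library was under 1 CPM, the day 5 libraries spread over more than a factor of 2, and the groups did not overlap. The log2 fold change was -6.16 ± 0.42 (SE, n = 3 per group, adjusted p = 3.22e-09). For dpy-13 (chromosome IV, 4235617 to 4236710), which sets body length, the levels were 0.842, 0.273 and 0.585 CPM at day 10 and 34.04, 18.95 and 14.6 CPM at day 5, a log2 fold change of -5.32 ± 0.34 (adjusted p = 1.40e-09). Again replicate 1 was the highest library at both ages, and no day 10 library came near a day 5 one. The collagen col-73 (chromosome II, 4872098 to 4873129) had 0.0915, 0.0727 and 0.123 CPM at day 10 and 10.6, 8.21 and 7.15 CPM at day 5 (log2 fold change -6.45 ± 0.32, adjusted p = 3.41e-11).

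The 22 collagens that fell by over 4 on the log2 scale were almost gone at day 10. Their summed level was 5.18, 2.44 and 4.50 CPM in the day 10 libraries, against 254, 158 and 114 CPM in the day 5 libraries, and the highest day 10 level of any of them was 0.842 CPM. Day 5 replicate 1 was the highest of its group for all 22 of them and for 76 of the 87 collagens that fell. In 19 of the 22 replicate 1 was the highest and replicate 3 the lowest day 5 library, so the day 5 libraries differed from each other in this set as a whole. Without day 5 replicate 1 the named collagens still passed, and what sets the libraries apart was not tested.

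Other collagens were still well detected at day 10. For col-119 (chromosome IV, 8978926 to 8979795) the libraries gave 124, 130.3 and 126 CPM at day 10, against 612, 551 and 595 CPM at day 5, a log2 fold change of -2.21 ± 0.10 (adjusted p = 9.94e-12). The 3 libraries of each age agreed closely, and the gap between the ages was far wider than either spread. The collagen col-80 had 19.1, 17.6 and 16.01 CPM at day 10 and 202, 151 and 174 CPM at day 5 (log2 fold change -3.32 ± 0.14, adjusted p = 6.50e-12), and col-178 fell with -2.81 ± 0.12 (adjusted p = 6.50e-12). The largest falls in CPM among genes that passed began with col-181, at 294 ± 27.6 CPM in day 10 worms and 815 ± 48.6 CPM in day 5 worms (SD, n = 3 each). Next was col-122, at 429.7 ± 25.8 and 926 ± 70.2 CPM at day 10 and day 5 (SD, n = 3 each). A small group went the other way. The collagen dpy-14 (chromosome I, 6843589 to 6845142) rose to 81.0, 70.8 and 74.3 CPM in the day 10 libraries, against 24.9, 18.9 and 21.7 CPM in the day 5 libraries (log2 fold change 1.78 ± 0.18, adjusted p = 5.86e-07). The collagen dpy-17 rose with a log2 fold change of 0.86 ± 0.17 (adjusted p = 6.51e-04).

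**Figure D2:**
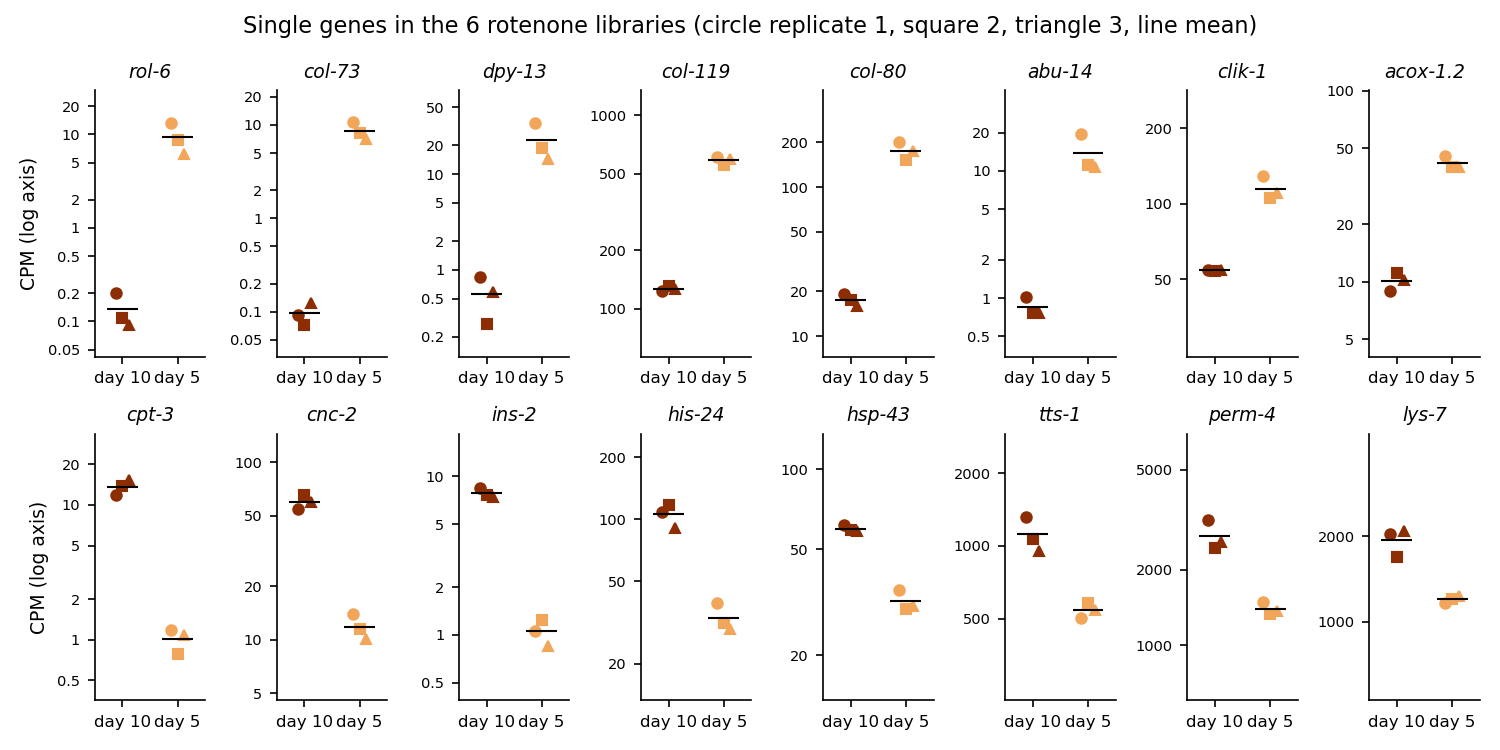
CPM (vertical axis, log scale) of 16 genes in each rotenone library at day 10 (dark, left) and day 5 (light, right), where symbols mark replicates 1, 2 and 3 and the line is the mean of 3 libraries. The upper row holds genes that were lower at day 10 and the lower row genes that were higher, and in none of the 16 do the groups overlap. For rol-6, col-73, dpy-13 and abu-14 the day 5 replicates spread more than for col-119.

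Other products of the epidermis divided. Of 48 hedgehog-related genes, secreted proteins that in the worm act largely in the cuticle and epidermis, 19 were lower and 4 higher, with a median log2 fold change of -0.20. The ground-like gene grl-16 had 1.21, 0.782 and 1.17 CPM at day 10 and 17.04, 8.60 and 7.58 CPM at day 5 (log2 fold change -3.41 ± 0.27, adjusted p = 2.19e-08). The gene grd-14 fell with -2.80 ± 0.24 (adjusted p = 4.96e-08). Day 5 replicate 1 was again the highest library for both. Of 117 moulting genes other than collagens 24 were lower and 21 higher, with a median of 0.03. Without day 5 replicate 1, 15 were lower, and without day 5 replicate 3, 13 were higher. The falls included the patched-related gene ptr-16 (-3.13 ± 0.27, adjusted p = 6.32e-08) and the astacin protease gene nas-15 (-3.55 ± 0.36, adjusted p = 4.37e-07). Of 16 epidermal identity genes 3 were higher and 2 lower. The kinase gene nekl-2, which acts in moulting, rose with 0.55 ± 0.12 (adjusted p = 0.00216), and the T-box gene tbx-2 with 0.42 ± 0.10 (adjusted p = 0.00594). The epidermal GATA factor elt-3 did not pass (0.19, adjusted p = 0.28). In RNA of whole animals, fewer cells of a type and less RNA per cell cannot be told apart.

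Muscle genes fell by smaller amounts. Of 37 tested muscle genes 18 were lower at day 10 and 1 was higher, with a median log2 fold change of -0.44 and a summed level of 4094 to 4695 CPM in day 10 worms and 4805 to 5598 CPM in day 5 worms. The calponin-related gene clik-1 (chromosome V, 6765768 to 6768732) had 54.3, 53.8 and 54.1 CPM at day 10 and 129, 105 and 110.3 CPM at day 5, a log2 fold change of -1.09 ± 0.10 (adjusted p = 8.54e-08). Its day 10 libraries were nearly equal and lay well under every day 5 library. The body wall myosin heavy chain unc-54 had 194, 236 and 287 CPM at day 10 and 498, 397 and 519.5 CPM at day 5 (log2 fold change -0.98 ± 0.27, adjusted p = 0.0135). Day 10 replicate 1 was the lowest library for unc-54, and without it 13 of the 37 muscle genes were lower and none was higher. Troponin I tni-1 fell with -1.27 ± 0.14 (adjusted p = 1.30e-06). Dystrophin dys-1, the gene that rose, had 65.1, 59.6 and 64.8 CPM at day 10 and 54.3, 46.3 and 49.4 CPM at day 5 (log2 fold change 0.34 ± 0.11, adjusted p = 0.0288). Muscle genes also had no higher member without day 10 replicate 3, without day 5 replicate 2 or 3 and with rrn- genes kept. They had 2 without DMSO day 10 replicate 1 and with a length trend removed.

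Genes of the pharynx, the feeding pump, fell in 2 families. Of 33 such genes 27 were tested, and 12 of these were lower and none was higher, with a median of -0.71, and the 12 were all abu and phat genes. The abu-14 gene (chromosome II, 9225186 to 9227214), named in the deposited table pqn-95 and one of a family with repeated glutamine- and asparagine-rich stretches that lines the pharynx, had 1.03, 0.763 and 0.770 CPM at day 10 and 19.4, 11.1 and 10.8 CPM at day 5 (log2 fold change -4.03 ± 0.26, adjusted p = 1.97e-09). Its relative abu-8 fell with -4.86 ± 0.42 (adjusted p = 5.05e-08). The pharyngeal myosins myo-1 and myo-2 had log2 fold changes of -0.12 and -0.005 and did not pass (adjusted p = 0.725 and 0.99), nor did the pharyngeal troponins tnt-4 and tnc-2 (0.049 and 0.083, adjusted p = 0.815 and 0.646).

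Detoxification enzymes fell more often than they rose. Of 66 UDP-glucuronosyltransferases, which attach sugars to foreign and endogenous compounds, 27 were lower and 4 higher, with a median of -0.26 and a summed level of 599.9 to 614 CPM at day 10 and 743 to 833 CPM at day 5. The gene ugt-6 (chromosome V, 12795484 to 12798111) had 1.19, 0.963 and 0.893 CPM at day 10 and 3.84, 3.95 and 3.77 CPM at day 5 (log2 fold change -1.92 ± 0.15, adjusted p = 1.30e-08), with no overlap and little spread at either age. The gene ugt-65 fell with -3.30 ± 0.26 (adjusted p = 1.56e-08). Of 48 glutathione S-transferase genes 12 were lower and 5 higher (8 without DMSO day 10 replicate 1), led among the falls by gst-13 (-0.95 ± 0.11, adjusted p = 2.13e-06) and gst-27 (-0.90 ± 0.11, adjusted p = 2.54e-06). The oxidative stress reporter gene gst-4 had 7.23, 9.11 and 9.67 CPM at day 10 and 13.8, 18.2 and 16.4 CPM at day 5 (log2 fold change -0.89 ± 0.14, adjusted p = 9.66e-05). Every day 10 library of gst-4 lay below every day 5 library.

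Cytochrome P450 genes moved both ways, with 20 of 73 lower and 15 higher. The xenobiotic-induced genes cyp-35A3 and cyp-35A2 fell with -2.14 ± 0.19 and -1.12 ± 0.11 (adjusted p = 5.80e-08 and 2.55e-07). Reads of cyp-35A genes, which are close copies, may be split between them. In contrast cyp-33B1 (chromosome V, 9041330 to 9043677) rose to 6.59, 4.24 and 6.64 CPM in the day 10 libraries, against 0.601, 0.703 and 1.05 CPM in the day 5 libraries. It was the third largest rise of a well counted gene with a gene-class name (log2 fold change 2.96 ± 0.24, adjusted p = 2.19e-08). Of 29 ABC exporters 7 were lower and 3 higher, and leaving out any 1 of the rotenone libraries other than day 10 replicate 3 gave 3 or 4 lower. The exporter gene pgp-5 was at 4.41, 4.33 and 4.50 CPM at day 10 and 12.8, 13.3 and 12.2 CPM at day 5 (log2 fold change -1.53 ± 0.11, adjusted p = 8.60e-09), and mrp-3 had -0.75 ± 0.16 (adjusted p = 0.00168). Of 14 hypoxia genes 5 were lower and none was higher, among them the cysteine synthase family gene cysl-2 (-0.90 ± 0.10, adjusted p = 1.63e-06) and the sulfide quinone oxidoreductase gene sqrd-1 (-0.74 ± 0.09, adjusted p = 5.83e-06). Metal handling genes showed 4 higher and 3 lower of 20, among the rises the metal transporter genes zipt-2.2 (0.77 ± 0.15, adjusted p = 9.29e-04) and smf-3 (0.98 ± 0.26, adjusted p = 0.00943). Without day 10 replicate 1 or day 5 replicate 1 or 3 there were 2 higher.

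**Figure D3:**
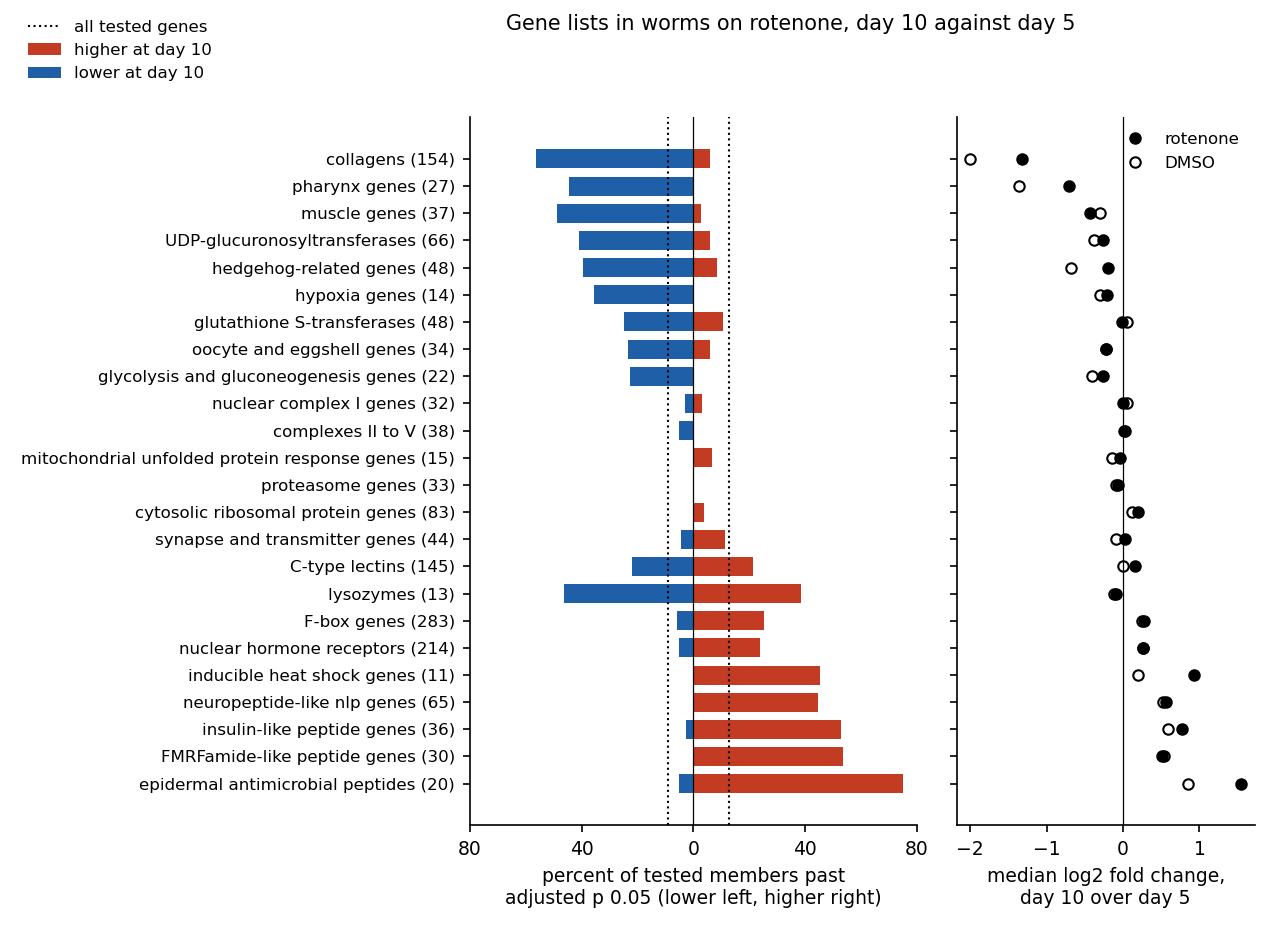
Left, percent of the tested members of each gene list that were higher (right of 0) or lower (left of 0) at rotenone day 10 than at day 5, with the percent of all tested genes, 12.6 and 9.23, as dotted lines. Right, median log2 fold change of the same lists on rotenone (filled) and on DMSO (open). Collagens lie furthest left and epidermal antimicrobial peptides furthest right in the rotenone comparison.

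Epidermal antimicrobial peptides, small secreted peptides of the cnc and nlp families, were the list with the largest median rise. Of 20 tested members 15 were higher and 1 was lower, with a median log2 fold change of 1.55 and a summed level of 446 to 519.9 CPM in day 10 worms and 155 to 205 CPM in day 5 worms. The caenacin gene cnc-2 (chromosome V, 1449665 to 1450189) had 54.2, 65.4 and 59.8 CPM in the day 10 libraries, against 13.96, 11.4 and 10.1 CPM in the day 5 libraries. All day 10 libraries lay above all day 5 libraries by more than a factor of 3, with a log2 fold change of 2.33 ± 0.16 (adjusted p = 4.68e-09). Its relative cnc-6 had 11.1, 8.54 and 10.1 CPM at day 10 and 1.41, 1.02 and 1.32 CPM at day 5 (log2 fold change 2.95 ± 0.21, adjusted p = 5.19e-09). The infection- and wound-induced gene nlp-29 rose with 1.57 ± 0.20 (adjusted p = 5.71e-06). Its relative nlp-24 fell with -1.85 ± 0.32 (adjusted p = 2.09e-04). These are short genes, and log2 fold changes over all tested genes fell with exonic length (Spearman rho -0.239 across genes, which are not independent, with medians of 0.24 among the shortest and -0.10 among the longest when genes are cut into 5 equal groups). With a length trend removed 15 of the 20 were still higher and the median was 1.25.

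Lysozymes, which break bacterial cell walls, changed in both directions, with 5 of 13 tested members higher and 6 lower. The lysozyme lys-7 (chromosome V, 3481432 to 3482600) had 2038, 1698 and 2086 CPM at day 10 and 1166, 1200.1 and 1235 CPM at day 5, the second largest rise in CPM among genes that passed (log2 fold change 0.69 ± 0.10, adjusted p = 5.52e-05). The groups did not overlap, and replicate 2 was the lowest at day 10. The invertebrate-type lysozyme ilys-2 rose with 2.92 ± 0.33 (adjusted p = 1.66e-06), while lys-2 fell to 75.6, 68.4 and 89.4 CPM in day 10 worms, against 178, 202 and 185 CPM in day 5 worms (log2 fold change -1.28 ± 0.11, adjusted p = 3.44e-08). The invertebrate-type ilys-5 fell with -1.07 ± 0.16 (adjusted p = 4.66e-05). Of 240 C-type lectin genes 145 were tested, and 31 were higher and 32 lower, among the falls clec-47 (-2.85 ± 0.15, adjusted p = 8.61e-11) and clec-265 (-1.58 ± 0.09, adjusted p = 5.72e-10). Of 94 saposin-like, thaumatin-like and other effector genes 69 were tested, and 18 were higher and 13 lower, with a median of 0.26. The saposin-like gene spp-12 rose with 1.79 ± 0.20 (adjusted p = 1.23e-06) and the thaumatin-like gene thn-1 with 1.33 ± 0.16 (adjusted p = 4.15e-06). Of 35 tested pals genes, several of which are part of the response to intracellular pathogens, 16 were higher and none was lower, with a median of 1.11. The gene pals-33 had 4.06, 3.11 and 3.36 CPM at day 10 and 0.601, 0.469 and 0.233 CPM at day 5 (log2 fold change 2.88 ± 0.27, adjusted p = 2.03e-07).

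Genes for signalling peptides were among those most often higher at day 10. Of 36 insulin-like peptide genes, ligands of the DAF-2 receptor, 19 were higher and 1 was lower, with a median of 0.77 and a summed level of 119.96 to 139 CPM at day 10 and 73.6 to 81.6 CPM at day 5. The gene ins-2 (chromosome II, 5988524 to 5989426) had 8.38, 7.56 and 7.44 CPM in the day 10 libraries, against 1.06, 1.25 and 0.855 CPM in the day 5 libraries. The lowest day 10 library was several times the highest day 5 library, and the log2 fold change was 2.88 ± 0.19 (adjusted p = 2.47e-09). A larger fold change came from ins-8, at 1.67, 1.58 and 1.401 CPM at day 10 and 0.114, 0.117 and 0.0777 CPM at day 5 (log2 fold change 3.83 ± 0.39, adjusted p = 4.07e-07).

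Of 30 FMRFamide-like peptide genes 16 were higher and none was lower (median 0.51). Of 65 neuropeptide-like nlp genes outside the epidermal set 29 were higher and none was lower (median 0.56). The gene flp-10 (chromosome IV, 7868907 to 7870081) had 14.3, 10.5 and 11.7 CPM at day 10 and 6.01, 6.17 and 5.94 CPM at day 5 (log2 fold change 1.01 ± 0.11, adjusted p = 8.74e-07). The sleep-promoting peptide gene flp-11 rose with 0.66 ± 0.10 (adjusted p = 5.59e-05). For nlp-16 and nlp-48 the log2 fold changes were 0.75 ± 0.10 and 1.70 ± 0.23 (adjusted p = 1.35e-05 and 1.44e-05). Day 10 replicate 1 was the highest day 10 library for 28 of the 30 FMRFamide-like, 47 of the 65 nlp and 20 of the 36 insulin-like genes. Without it 8, 17 and 11 of these genes were higher, and without day 5 replicate 3 there were 10, 18 and 12, so the counts rest in part on these libraries. Without day 5 replicate 1, 11 insulin-like genes were higher. With a length trend removed 15 FMRFamide-like, 23 nlp and 13 insulin-like genes were higher. In 26 of the 30, 42 of the 65 and 21 of the 36 genes every day 10 library lay above every day 5 library, against 23.5% of all tested genes.

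Genes of the synapse itself were higher about as often as all tested genes. Of 44 synapse and transmitter genes 5 were higher and 2 lower, with a median of 0.02. There were 3 higher without day 10 replicate 1, 2 without day 5 replicate 2 and 8 without DMSO day 10 replicate 1. Of 5 neuron markers snb-1 and egl-3 were higher (0.39 and 0.46, adjusted p = 0.0471 and 0.0203), and rgef-1, rab-3 and unc-119 did not pass (0.21, 0.025 and 0.019, adjusted p = 0.654, 0.925 and 0.953). Among the 5 higher synapse and transmitter genes, syntaxin unc-64 had 20.9, 19.7 and 21.5 CPM at day 10 and 15.1, 14.3 and 13.6 CPM at day 5 (log2 fold change 0.53 ± 0.09, adjusted p = 1.17e-04). The calcium channel gene unc-2 rose with 0.61 ± 0.12 (adjusted p = 7.89e-04). Most chemoreceptor genes were too low to test. Of 1376 such genes 285 were tested, and 37 of these were higher and 5 lower, among them str-31 (3.81 ± 0.31, adjusted p = 2.49e-08). Without day 10 replicate 1, 20 were higher, without day 5 replicate 1 there were 23 and without day 5 replicate 3 there were 21. Since a gene could pass the filter through the age where it is high, those counts do not describe the family. The list also holds genes of the srlf class, and its srlf-34 had 73.3, 62.7 and 86.8 CPM at day 10 and 14.9, 14.3 and 16.5 CPM at day 5 (log2 fold change 2.28 ± 0.16, adjusted p = 3.33e-09).

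Large regulator families leaned towards rises. Of 283 tested F-box genes, adaptors that select proteins for ubiquitin ligases, 71 were higher and 17 lower (median 0.28), and without day 5 replicate 1 there were 45 higher and without day 10 replicate 1 or day 5 replicate 2 there were 10 lower. The rises were led by fbxa-24 at 9.78, 10.5 and 8.14 CPM at day 10 and 1.98, 2.54 and 1.59 CPM at day 5 (log2 fold change 2.22 ± 0.15, adjusted p = 2.83e-09) and fbxc-51 (1.12 ± 0.10, adjusted p = 1.41e-07). Of 214 nuclear hormone receptor genes 51 were higher and 11 lower (median 0.26), among them nhr-150 (2.07 ± 0.26, adjusted p = 7.43e-06) and nhr-35 (0.56 ± 0.08, adjusted p = 1.72e-05). Without day 5 replicate 3 only 25 of them were higher, and without day 10 replicate 1, day 5 replicate 1 or day 5 replicate 2 there were 7, 5 and 7 lower. Homeobox genes showed 17 of 82 higher and 7 lower (10 higher without day 5 replicate 3, and 1 to 3 lower without day 10 replicate 2 or 3 or day 5 replicate 2 or 3). The PAX6 gene vab-3 had 8.62, 9.25 and 8.91 CPM at day 10 and 3.999, 3.71 and 3.15 CPM at day 5 (log2 fold change 1.29 ± 0.15, adjusted p = 1.93e-06). The homeobox gene ceh-43 had 1.15 ± 0.16 (adjusted p = 2.75e-05). Of 98 BTB, MATH and Skp1-related genes 13 were higher and 10 lower, near the shares of all genes, with 8 higher without day 5 replicate 1 or 3 and 6 lower without day 5 replicate 2. The rises included skr-21 and bath-10 (1.32 ± 0.14 and 1.37 ± 0.18, adjusted p = 5.60e-07 and 9.82e-06).

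Yolk protein mRNA was lower at day 10 for part of the family. Of 6 vitellogenin genes 3 passed, all lower, with a median of -0.75 and a summed level of 20441 to 32052 CPM at day 10 and 29056 to 42098 CPM at day 5, so the sums overlapped. The gene vit-3 had 95.0, 88.9 and 111 CPM at day 10 and 207, 251 and 308 CPM at day 5 (log2 fold change -1.38 ± 0.23, adjusted p = 1.52e-04). The gene vit-4 had -1.02 ± 0.18 (adjusted p = 2.10e-04). Both are near-identical to vit-5, so the authors' counting may have split or dropped their reads.

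Oocyte and eggshell genes fell by little. Of 34 oocyte and eggshell genes 8 were lower and 2 higher, with a median of -0.22. Among the falls the egg surface gene egg-2 had 389, 382 and 419.9 CPM at day 10 and 508, 491 and 537 CPM at day 5 (log2 fold change -0.37 ± 0.08, adjusted p = 0.00282). The embryonic Nanos gene nos-2 fell with -0.40 ± 0.11 (adjusted p = 0.0134). The 2 that rose were perm-4 (chromosome IV, 1121494 to 1125107) and perm-2 (chromosome IV, 1126790 to 1128865), which lie close together and serve the permeability barrier of the eggshell. For perm-4 the libraries gave 3160.1, 2440.4 and 2587 CPM at day 10 and 1493, 1331 and 1371 CPM at day 5 (log2 fold change 0.96 ± 0.12, adjusted p = 5.41e-06). It was the largest rise in CPM among genes that passed. For perm-2 the log2 fold change was 0.77 ± 0.12 (adjusted p = 5.89e-05). Replicate 1 was the highest day 10 library for both, and neither overlapped with day 5. The count of lower members depended on single libraries, with 3 of the 34 lower without day 10 replicate 1 or 2, 4 without day 5 replicate 1, 2 without day 5 replicate 3 and 17 without DMSO day 10 replicate 1. The Y-box RNA-binding protein cey-2 had 1657, 1954 and 2074 CPM at day 10 and 2447, 2257 and 2237 CPM at day 5 (log2 fold change -0.29 ± 0.09, adjusted p = 0.0315). This call was lost in 6 of 16 alternative analyses, and that of nos-2 was lost without day 10 replicate 2 and without day 5 replicate 2 or 3.

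Of 20 genes of P granules, the RNA-protein bodies of the germline, 4 were lower and none was higher (median -0.26), among them meg-1 (-0.53 ± 0.09, adjusted p = 1.56e-04) and meg-3 (-0.64 ± 0.12, adjusted p = 6.98e-04). Of 32 meiotic chromosome genes 3 were lower, with cosa-1 at -0.28 ± 0.08 and zim-1 at -0.29 ± 0.08 (adjusted p = 0.0184 and 0.0188). Of 45 DNA replication and cell cycle genes 3 were lower (6.67%, under the share of all genes) and none was higher, with a median of -0.16. The falls included the cyclins cya-1 at -0.31 ± 0.09 and cyb-2.2 at -0.28 ± 0.08 (adjusted p = 0.0165 and 0.0183). The calls of cosa-1, zim-1, cya-1 and cyb-2.2 were each lost in at least 3 of 16 alternative analyses. The counts rested on single libraries. Without DMSO day 10 replicate 1, 10 P granule, 9 meiotic and 12 replication genes were lower. Meiotic genes were at 1 without day 10 replicate 2 and at 0 without day 5 replicate 2, and replication genes were at 0 and 1 without day 10 replicates 1 and 2. The germline markers pgl-1, glh-1, him-3 and syp-1 did not pass (-0.25, -0.19, -0.064 and 0.16, adjusted p = 0.234, 0.426, 0.8 and 0.253).

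Of 72 histone genes 27 were tested, and 6 were higher and none was lower (median 0.28). There were 3 higher without day 5 replicate 3 and 10 without DMSO day 10 replicate 1. The linker histone gene his-24 (chromosome X, 14490094 to 14491119) had 109, 118 and 90.8 CPM at day 10 and 39.3, 31.5 and 29.3 CPM at day 5, more than doubled without overlap (log2 fold change 1.66 ± 0.17, adjusted p = 6.24e-07). For his-35 the change was 0.43 ± 0.10 (adjusted p = 0.0029), and it was lost with a length trend removed. Of 83 tested sperm genes 8 were lower (9.64%, near the share of all genes) and 4 higher (4.82%). This list, set by gene names, also takes in nspc and nspd genes. It summed to 287 to 308 CPM at day 10 and 314 to 341 CPM at day 5. The 4 sperm markers summed to only 1.87 to 2.71 CPM and 0.703 to 1.17 CPM, so most of that level came from other members. The lower count was 4 to 5 without any 1 of day 10 replicates 1 and 2 and day 5 replicates 2 and 3. The falls lay mostly in the nspc class, a set of close copies, where 7 of 14 tested genes were lower. Among them were nspc-18 and nspc-9 (-2.25 ± 0.26 and -1.42 ± 0.20, adjusted p = 2.45e-06 and 2.61e-05). Of 17 msp genes 0 passed, with a median log2 fold change of 0. The marker msp-3 was at 0 CPM in all 6 libraries, so its test could not show a change. Of 33 spe genes 2 were higher and 1 was lower. Of 51 zygotic transcripts of early embryos 9 were higher and 6 lower. The lower count was 3 without any 1 of day 10 replicates 1 and 3 and day 5 replicates 1 and 3, and 10 without DMSO day 10 replicate 1. The genes sdz-26 and pes-8 rose with 0.83 ± 0.13 and 0.81 ± 0.13 (adjusted p = 1.09e-04 and 1.06e-04).

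Genes of the respiratory chain, the target of rotenone, showed few changes between these ages. Of 32 nuclear complex I genes 1 was higher and 1 lower, with a median log2 fold change of 0.00, and 2 of 38 genes of complexes II to V were lower (4 without DMSO day 10 replicate 1, 0 without day 10 replicate 1 or day 5 replicate 1 or 3). In edgeR's test 0 of 8 mitochondrially encoded mRNAs passed, 0 had an unadjusted p under 0.05, and DESeq2 called 0. The complex I subunit gas-1, whose mutants are sensitive to volatile anaesthetics, had 53.9, 68.04 and 63.4 CPM at day 10 and 88.4, 71.9 and 78.4 CPM at day 5 (log2 fold change -0.37 ± 0.10, adjusted p = 0.0151). The subunit ndua-8 had 0.29 ± 0.10 (adjusted p = 0.0489). The succinate dehydrogenase subunit sdha-2 and the complex III subunit ucr-2.2 had -0.48 ± 0.16 and -0.22 ± 0.08 (adjusted p = 0.0318 and 0.045). Of 16 alternative analyses, the call was lost in 2 for gas-1, in 10 for ndua-8, in 4 for sdha-2 and in 8 for ucr-2.2, without day 10 or day 5 replicate 1 among others. Of 15 genes of the mitochondrial unfolded protein response 1 was higher, timm-23 (0.42 ± 0.13, adjusted p = 0.0275), a call lost in 5 of 16. The mitochondrial chaperone hsp-6 had 478, 661 and 719.8 CPM at day 10 and 663, 600.1 and 707 CPM at day 5. The groups overlapped, with a log2 fold change of -0.084 ± 0.21 (adjusted p = 0.826), and hsp-60 had -0.32 ± 0.19 (adjusted p = 0.25, or 0.048 without DMSO day 10 replicate 1).

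Carbon metabolism leaned lower. Of 21 genes of the tricarboxylic acid and glyoxylate cycles 5 were lower and none was higher. The count was 2 without day 10 or day 5 replicate 1, 3 without day 5 replicate 2 or 3 and 9 without DMSO day 10 replicate 1. Among the falls were the malate dehydrogenase mdh-2 (-0.42 ± 0.10, adjusted p = 0.00276) and the isocitrate dehydrogenase subunit idhg-2 (-0.999 ± 0.18, adjusted p = 3.81e-04). Of 22 genes of glycolysis and gluconeogenesis 5 were lower, with enolase enol-1 at -0.38 ± 0.11 and fructose bisphosphatase fbp-1 at -0.36 ± 0.10 (adjusted p = 0.0118 and 0.0146). Of these 22 genes 0 passed without day 10 replicate 1, 2 without day 5 replicate 1 and 12 without DMSO day 10 replicate 1. Of 97 genes of fatty acid synthesis and breakdown 19 were lower and 12 higher. The peroxisomal acyl-CoA oxidase acox-1.2 (chromosome I, 12942280 to 12946588) had 8.90, 11.03 and 10.3 CPM at day 10 and 45.6, 39.6 and 39.98 CPM at day 5 (log2 fold change -2.05 ± 0.15, adjusted p = 5.67e-09). The lipid-binding protein lbp-8 fell with -1.73 ± 0.20 (adjusted p = 2.44e-06). The largest rise of a well counted gene with a gene-class name was in the same list, that of cpt-3 (chromosome III, 2082819 to 2088314), a carnitine palmitoyltransferase, an enzyme family that carries fatty acids into mitochondria, which had 11.95, 13.9 and 15.3 CPM at day 10 and 1.17, 0.782 and 1.09 CPM at day 5. Every day 10 library lay far above every day 5 library, with a log2 fold change of 3.71 ± 0.21 (adjusted p = 2.87e-10). Of 33 carboxylesterase cest genes 14 were lower and 1 higher (median -0.34).

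Few protein synthesis genes passed the test. Of 83 cytosolic ribosomal protein genes 3 were higher and none was lower (median 0.19), among them rps-27 and rsl-24D1 (0.46 ± 0.13 and 0.52 ± 0.16, adjusted p = 0.0172 and 0.0254). Of these genes 0 passed without day 10 replicate 1 or without day 5 replicate 2 or 3, and 12 were higher without DMSO day 10 replicate 1. Their median was 0.01 once a length trend was removed. Of 69 mitochondrial ribosomal protein genes mrps-12 alone passed (0.30 ± 0.09, adjusted p = 0.0289), and the call was lost in 9 of 16 alternative analyses, while 5 were lower without DMSO day 10 replicate 1. In edgeR's test 0 of 33 proteasome genes passed, 4 had an unadjusted p under 0.05, and DESeq2 called 5 lower.

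Stress and turnover genes changed in single members. Of 11 inducible heat shock genes 5 were higher and none was lower, with a median of 0.92. The small heat shock gene hsp-12.6 had 2.82, 2.71 and 3.36 CPM at day 10 and 0.634, 0.703 and 0.622 CPM at day 5 (log2 fold change 2.19 ± 0.28, adjusted p = 7.99e-06). The gene hsp-43 had 61.5, 59.0 and 58.7 CPM at day 10 and 35.1, 29.9 and 30.7 CPM at day 5 (log2 fold change 0.90 ± 0.09, adjusted p = 6.19e-07). Neither overlapped between the ages. Of 23 endoplasmic reticulum folding genes 3 were higher and 1 lower, and xbp-1, the factor of the unfolded protein response there, and the cyclophilin cyn-5 rose with 0.45 ± 0.08 and 0.32 ± 0.10 (adjusted p = 1.80e-04 and 0.023), the second lost in 6 of 16 alternative analyses. Leaving out day 10 or day 5 replicate 2 or 3 gave 1 higher, and 4 were lower without DMSO day 10 replicate 1. Of 54 autophagy and lysosome genes 5 were higher and 4 lower. Without day 5 replicate 3 there were 3 higher and 2 lower, without day 10 replicate 1 there were 2 lower, and 15 were lower without DMSO day 10 replicate 1 and 13 in DESeq2. The autophagy receptor sqst-1 had 119.8, 131 and 140.4 CPM at day 10 and 67.6, 64.4 and 68.3 CPM at day 5 (log2 fold change 0.97 ± 0.10, adjusted p = 8.46e-07). The transcription factor hlh-30, which drives lysosomal genes, rose with 0.71 ± 0.13 (adjusted p = 2.97e-04). Of 30 antioxidant enzymes 3 were lower and 2 higher, with gpx-7 at -1.24 ± 0.15, msra-1 at -0.68 ± 0.10 and the mitochondrial superoxide dismutase sod-3 at -0.43 ± 0.12 (adjusted p = 3.48e-06, 2.68e-05 and 0.0121). The call of sod-3 was lost without day 10 replicate 1 (adjusted p = 0.053) and without day 10 replicate 2 (0.059). Cathepsin proteases split, 6 of 23 higher and 5 lower, and the aspartyl protease asp-17 had 24.02, 21.4 and 21.7 CPM at day 10 and 4.54, 3.87 and 4.31 CPM at day 5 (log2 fold change 2.39 ± 0.12, adjusted p = 3.83e-11). The cathepsin B-like cpr-2 rose with 2.71 ± 0.27 (adjusted p = 3.07e-07).

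Among tissue lists, 7 of 20 intestine genes were lower and 2 higher, with a median of -0.16. The summed level of the list was nevertheless higher at day 10, at 2535 to 2649 CPM, against 2324 to 2418 CPM at day 5. The intestinal intermediate filament gene ifp-1 fell with -3.31 ± 0.28 and the acid phosphatase pho-1 with -0.95 ± 0.11 (adjusted p = 3.54e-08 and 3.87e-06). The microvillar actin act-5 had 48.7, 54.3 and 52.8 CPM at day 10 and 142, 104.4 and 104.2 CPM at day 5 (log2 fold change -1.17 ± 0.16, adjusted p = 1.19e-05). The intestinal GATA factor elt-2 did not pass, with 6.28, 8.58 and 6.56 CPM at day 10 and 7.18, 5.63 and 6.26 CPM at day 5 (log2 fold change 0.16 ± 0.16, adjusted p = 0.545). Of 10 coelomocyte and excretory genes 2 were higher, the excretory aquaporin aqp-8 (1.25 ± 0.10, adjusted p = 2.99e-08) and unc-53 (0.56 ± 0.13, adjusted p = 0.00284). Of 16 gonad sheath, spermatheca and uterus genes 2 were higher, fos-1 and inx-9 (0.45 ± 0.10 and 0.40 ± 0.10, adjusted p = 0.00188 and 0.00754), and 2 lower.

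Genes outside the lists held further large changes. The astacin protease hch-1 (chromosome X, 14696411 to 14699977), which embryos use to hatch, had 29.1, 35.5 and 28.2 CPM at day 10 and 5.82, 3.87 and 4.58 CPM at day 5 (log2 fold change 2.68 ± 0.20, adjusted p = 7.56e-09). The long noncoding RNA tts-1 had 1324, 1073 and 956 CPM at day 10 and 504, 582 and 542 CPM at day 5 (log2 fold change 1.04 ± 0.14, adjusted p = 1.42e-05), with every day 10 library above every day 5 library. The cystatin cpi-1, an inhibitor of cysteine proteases, had 967, 947 and 929.8 CPM at day 10 and 437, 498 and 452 CPM at day 5 (log2 fold change 1.04 ± 0.16, adjusted p = 5.27e-05). Also among the 10 largest rises of well counted genes with a gene-class name were fip-1 and nssp-65 (3.30 ± 0.36 and 2.80 ± 0.25, adjusted p = 9.51e-07 and 1.12e-07).

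Among genes known only by a sequence name, C45B2.3, C18D11.6, R07C12.1 and ZK355.8 rose most among the well counted (4.01, 3.44, 3.15 and 3.11 on the log2 scale). C18D11.6 had 41.5, 32.2 and 36.0 CPM at day 10 and 3.36, 3.32 and 3.42 CPM at day 5 (adjusted p = 2.03e-07). The deepest falls were those of K02E11.10, R02F11.1, F01D5.5 and F30H5.3 (-6.12, -5.26, -4.31 and -4.10). Of these, F01D5.5 had 0.476, 0.418 and 0.462 CPM at day 10 and 9.15, 9.42 and 8.51 CPM at day 5 (adjusted p = 6.50e-12).

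Over 161 gene classes with at least 10 tested members, those with the largest share of rises were flp (16 of 30), ins (18 of 35), zip (6 of 12), nlp (37 of 75), zig (6 of 13) and pals (16 of 35). Those with the largest share of falls were dbd (10 of 17), col (77 of 135), grd (8 of 15), nspc (7 of 14), cest (14 of 33) and pho (5 of 12). By chromosome, 15.3% of tested X-linked genes were higher and 14.03% lower, against 12.2% and 8.43% of autosomal genes. Of 636 tested pseudogenes 95 were higher and 15 lower.

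On the DMSO plates much of the same age change was seen. Between day 10 and day 5 on DMSO, 2245 genes were higher (13.3%) and 2048 lower (12.2%). Across the 16827 genes the log2 fold changes on rotenone and on DMSO had a Pearson correlation of 0.747, given as a description because genes are not independent. Of the genes higher on rotenone 1483 were also higher on DMSO, which is 69.7% of the rotenone list and 66.1% of the DMSO list. Of those lower on rotenone 1257 were also lower on DMSO, 80.9% of the rotenone list and 61.4% of the DMSO list. Opposite calls were rare, with 11 genes higher on rotenone and lower on DMSO and 0 the other way.

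**Figure D4:**
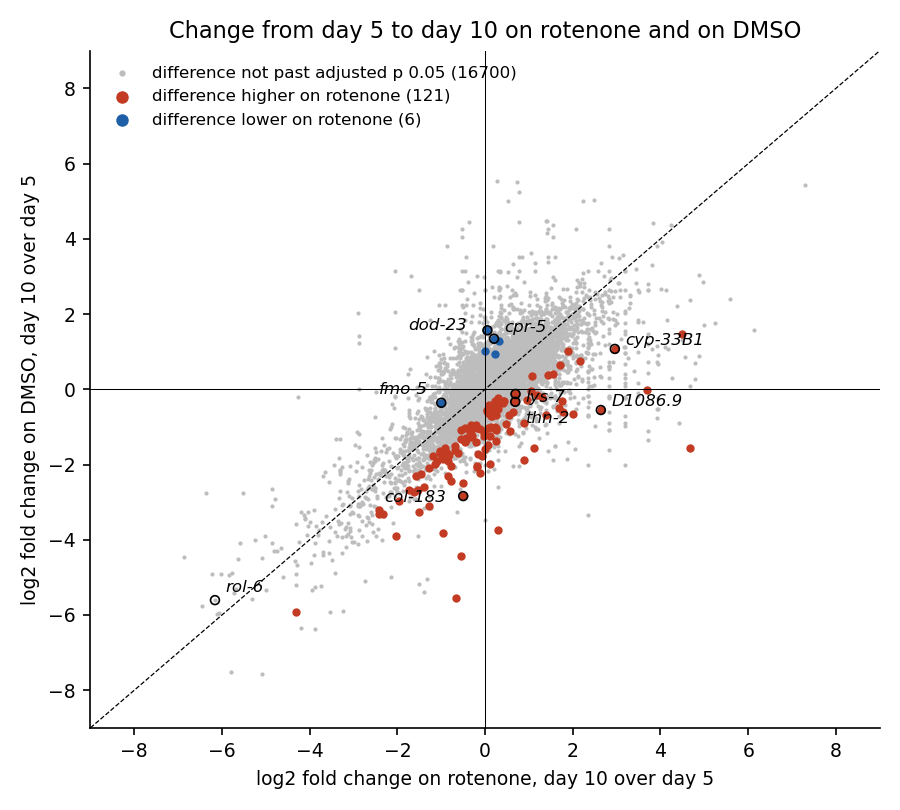
Log2 fold change of day 10 over day 5 on rotenone (horizontal axis) and on DMSO (vertical axis) for 16827 tested genes, with the line of equal change. The genes whose changes differed by test are coloured, 121 with a higher change on rotenone to the right of the line and 6 with a lower one to its left.

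Most collagens were lower at day 10 on both plates, and in 9 of them the change on rotenone was higher than on DMSO by test. That count was 18 without DMSO day 10 replicate 1, 3 without rotenone day 10 or day 5 replicate 1, and between 4 and 10 without any other of the 12 libraries. On DMSO 102 of 154 collagens were lower and 7 higher, with a median of -2.001, against -1.32 on rotenone. The medians of antimicrobial peptides were 1.55 on rotenone and 0.84 on DMSO, those of insulin-like genes 0.77 and 0.59, of FMRFamide-like genes 0.51 and 0.53, of muscle genes -0.44 and -0.31 and of pharynx genes -0.71 and -1.36. No member of these 5 lists had a change that differed between rotenone and DMSO by test with all libraries, but without DMSO day 10 replicate 1 the test called 7 antimicrobial peptide and 3 pharynx genes higher and 1 muscle gene lower, and without DMSO day 5 replicate 3 it called 2 pharynx genes higher. Across ages the collagen sum on rotenone was 30700.1 to 35171 CPM at day 1, before the levels at days 5 and 10 given above, and 777 to 814 CPM at day 20, a decline over all 4 ages.

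**Figure D5:**
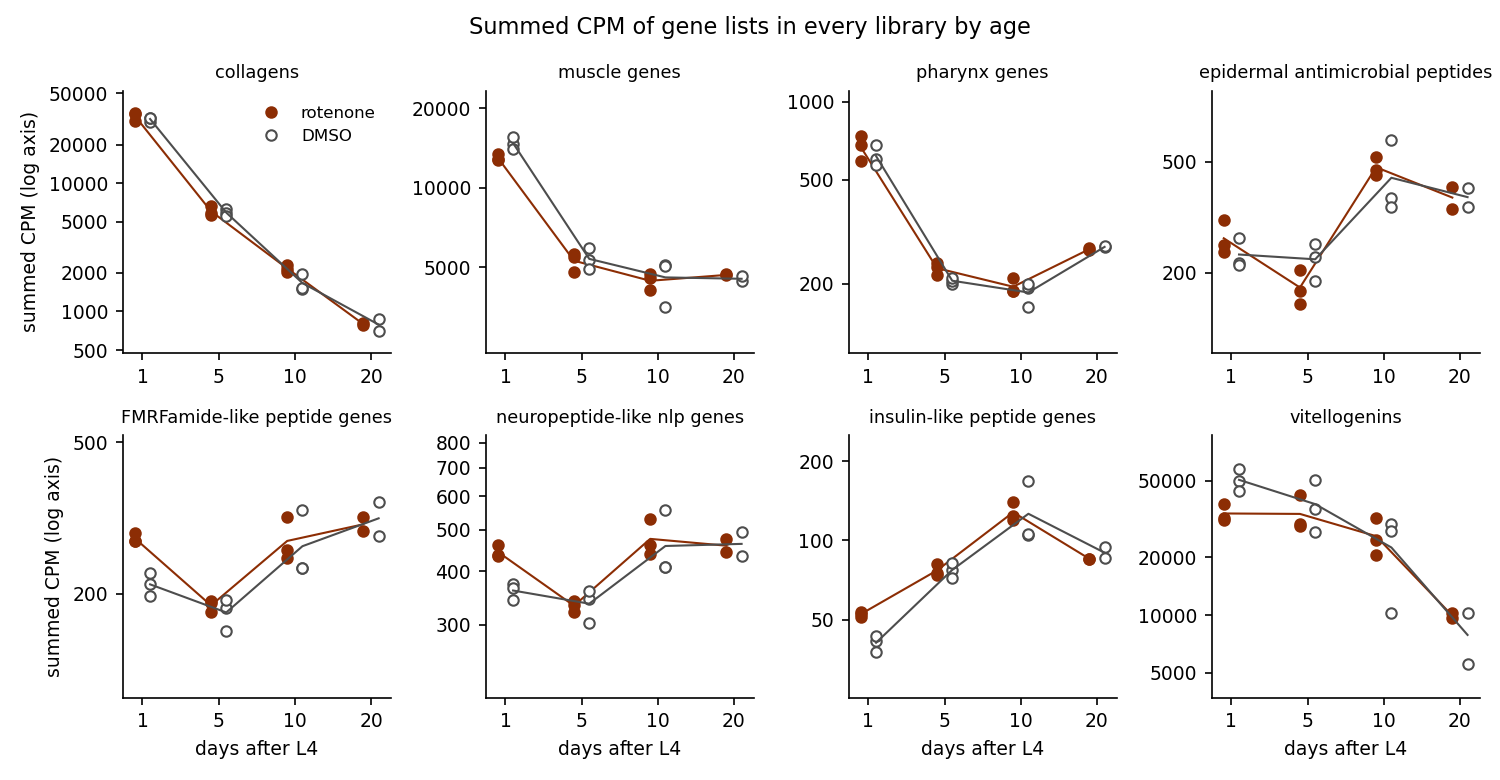
Summed CPM (vertical axes, log scale) of 8 gene lists in every library by age (1, 5, 10 and 20 days after L4, evenly spaced), rotenone as filled circles and DMSO as open circles, with lines through the group means. Collagens decline at every step, muscle and pharynx genes lose most before day 5, the 3 neuropeptide and insulin lists are higher at day 10 than at day 5, and DMSO day 10 replicate 1 is the outermost open circle in several panels.

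A test of the difference asked where the age change itself differed with rotenone. It called 127 genes in edgeR's quasi-likelihood test, which is 0.755% of those tested, 121 with a higher log2 fold change on rotenone (0.719%) and 6 with a lower one (0.0357%). Of the 121, 98 fell with age on DMSO, while on rotenone 43 fell and 32 rose. The collagen col-183 (chromosome X, 13466643 to 13467764) had the largest difference among collagens with a mean of at least 50 counts over the 12 libraries. It showed 12.1, 9.58 and 13.2 CPM at rotenone day 10 and 16.4, 16.4 and 16.6 CPM at rotenone day 5, against 5.47, 4.43 and 4.57 CPM at DMSO day 10 and 33.3, 39.2 and 30.4 CPM at DMSO day 5. Its level fell on both plates, less on rotenone, and no library of one group overlapped with another. The log2 changes were -0.50 on rotenone and -2.84 on DMSO, a difference of 2.34 ± 0.20 (SE, adjusted p = 4.31e-06). The other 8 collagens with a difference were col-38, col-43, col-49, col-60, col-63, col-71, col-120 and col-138, all in the same direction. Of the 9, 8 were lower at day 10 on DMSO, while on rotenone col-183 was lower, col-43 was higher and the others did not pass.

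Immune and stress genes made up part of the rest. Of the 69 effector genes 10 had a higher and 1 a lower change on rotenone, against 0.719% and 0.0357% of all genes: dod-3, dod-19, dod-24, fipr-22, fipr-23, irg-4, irg-5, irg-8, mbug-1 and thn-2, and in the lower direction dod-23. The higher count was 22 without DMSO day 10 replicate 1 and 3 to 10 without any other of the 12 libraries. Lysozyme lys-7 rose on rotenone (0.69) and had 1633, 1461 and 1504 CPM at DMSO day 10 and 1668, 1756 and 1587 CPM at DMSO day 5 (-0.12, adjusted p = 0.42), a difference of 0.82 ± 0.15 (adjusted p = 0.0123). The lysozymes lys-2 and lys-8 also fell less on rotenone, with differences of 0.80 and 0.57 (adjusted p = 0.0138 and 0.0206). The thaumatin-like gene thn-2 had log2 changes of 0.69 on rotenone and -0.33 on DMSO, a difference of 1.02 ± 0.15 (adjusted p = 0.00275). Further list members were 4 of 145 C-type lectin genes, the P450 genes cyp-33B1, cyp-33C1, cyp-34A2, cyp-34A9 and cyp-35B1 (5 of 73) and the metal genes mtl-1, cdr-2 and zipt-2.1 (3 of 20). Others were the desaturases fat-5 and fat-6 (2 of 97 fatty acid genes), the phosphoenolpyruvate carboxykinase gene pck-1, ugt-1, grd-4, grd-5 and the F-box gene fbxa-163. With 1 library left out the higher count was 0 to 11 for lectins, 1 to 5 for lysozymes and 2 to 6 for P450 genes. It was 0 to 4 for metal genes, 0 to 4 for fatty acid genes and 0 to 1 for the list of pck-1. The P450 gene cyp-33C1 had 2.95, 2.67 and 3.59 CPM at rotenone day 10 and 0.959, 0.782 and 0.971 CPM at rotenone day 5, against 1.31, 1.30 and 0.758 CPM at DMSO day 10 and 1.24, 1.53 and 1.39 CPM at DMSO day 5, a difference of 2.07 ± 0.29 (adjusted p = 0.0013).

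In the opposite direction dod-23 had 513, 571 and 547 CPM at rotenone day 10 and 498, 551 and 524 CPM at rotenone day 5, against 583, 489 and 576 CPM at DMSO day 10 and 187, 194 and 174 CPM at DMSO day 5. Its 6 rotenone libraries overlapped, while on DMSO it rose without overlap, a difference of -1.52 ± 0.15 (adjusted p = 3.34e-05). The cathepsin B-like gene cpr-5 had log2 changes of 0.20 on rotenone and 1.34 on DMSO, a difference of -1.14 ± 0.12 (adjusted p = 4.54e-05). The flavin monooxygenase gene fmo-5 fell on both plates, with log2 changes of -0.999 on rotenone and -0.36 on DMSO, a difference of -0.64 ± 0.14 (adjusted p = 0.0336) that was lost in 9 of 21 alternative analyses. The count of differing genes depended on single libraries. Leaving out each of the 12 libraries in turn gave 33 genes with a higher change (without DMSO day 5 replicate 2) to 267 (without DMSO day 10 replicate 1), and 2 to 19 with a lower one. Fitting the 4 groups alone gave 34 and 3.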

How the data were processed

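RNA of whole worms was made into libraries with a TruSeq kit, which does not mark strand, from 2 µg of total RNA each, per the labels' protocols. TopHat 1.4.1, HTSeq and the build WBcel235 are named in the submitters' processing notes. The deposited table holds raw counts per gene for 22 libraries; a deposited RPKM table was not used. Without strand, overlapping and antisense genes cannot be told apart, and near-identical copies may share or lose reads.

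Genes named rrn- were removed, and the 16827 genes kept by edgeR's filter (filterByExpr) were tested with edgeR 4.0.16 in R 4.3.3 (TMM scaling, quasi-likelihood F test, Benjamini-Hochberg adjustment, threshold 0.05). One fit held all 8 groups of 22 libraries, so that they share 1 estimate of spread. The contrasts were rotenone day 10 minus day 5, the same on DMSO, and their difference. The SE given with each log2 change was its size divided by the square root of the test's F value. It draws on the shared estimate of spread and not on the libraries compared alone. The biological coefficient of variation was 0.134. CPM are counts-per-million values of the tested, TMM-scaled total, not per length. Depth was 25747071 to 68746493 counts in the 6 rotenone libraries. In simulated counts with 100 genes changed at each size, 88 of 100 genes with a log2 change of 1 and 26 of 100 with 0.5 were recovered with 1 false call, and for the difference 65 and 4 with 0 false calls. The changed genes had a mean of at least 50 counts, and all other genes were set to no change between the ages. In the data 21.9% of genes passed, so these shares do not carry over to it.

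Alternatives were DESeq2 1.42.0, RLE size factors, other filters, rrn- genes kept, only the groups compared, a replicate block and each library left out. Another removed a length trend, a lowess curve on exonic length per library, through offsets in edgeR. Gene lists were sets of gene names, and coordinates came from the RefSeq annotation of WBcel235. Named genes were the 10 largest rises and falls among genes with a class name, 50 or more counts on average and no overlap, 4 per direction among genes with a sequence name, 5 per direction by CPM difference, 2 per list by p, 6 per direction for the difference, and 6 single genes (hsp-6, hsp-60, gst-4, sod-3, gas-1, elt-2). Others were chosen after their values were seen, and for them alternatives were not computed. The comparison, lists and tests were chosen with earlier results of these data known.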

Additional observations from a re-analysis of the deposited data

Results flagged for a closer look

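The age change differed with rotenone by test in 12 genes named by rule, the 6 with the largest difference in each direction among genes with at least 50 counts on average over the 12 libraries. On rotenone the log2 change of day 10 over day 5 was higher than on DMSO by 3.19 ± 0.43 for D1086.9 (SE, adjusted p = 9.05e-04 in edgeR's test), which had 2.23, 2.07 and 2.60 CPM at rotenone day 10 and 0.325, 0.234 and 0.583 CPM at rotenone day 5, against 1.28, 1.18 and 1.03 CPM at DMSO day 10 and 1.60, 2.14 and 1.26 CPM at DMSO day 5. It rose on rotenone and did not pass on DMSO (-0.55, adjusted p = 0.156). The same direction held for the collagen col-183 (2.34), Y51H7C.13 (2.17, adjusted p = 4.54e-05), dbd-13 (2.11, adjusted p = 0.00696), the F-box gene fbxa-163 (2.08, adjusted p = 0.0123) and the P450 gene cyp-33C1 (2.07). Of these, dbd-13 fell on DMSO (-2.24) and did not pass on rotenone (-0.13), and it lost its call when the 4 groups were fitted alone. The call of fbxa-163 was lost without DMSO day 5 replicate 2 (adjusted p = 0.058).

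Differences in the lower direction were -1.52 for dod-23, -1.14 for the cathepsin B-like gene cpr-5, -1.02 for oac-54 (adjusted p = 0.0299), -0.96 for the bestrophin gene best-1 (adjusted p = 0.0239), -0.71 for spe-41, which encodes a TRP channel of sperm (adjusted p = 0.0447), and -0.64 for fmo-5. All except fmo-5 rose on DMSO and did not pass on rotenone, and oac-54 had 5.82, 5.33 and 4.40 CPM at rotenone day 10 and 5.49, 4.92 and 4.93 CPM at rotenone day 5, against 4.86, 5.16 and 5.03 CPM at DMSO day 10 and 2.62, 2.34 and 2.45 CPM at DMSO day 5. Of 21 alternative analyses, the call was lost in 11 for oac-54, in 9 for best-1, in 15 for spe-41 and in 9 for fmo-5.

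Ribosomal RNA genes, which no comparison used, took 17.6% of all counts in rotenone day 5 replicate 2. With these genes kept in the scaling, 1877 genes were higher and 1954 lower at rotenone day 10.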

How the results depend on the processing

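With 1 library left out, 1485 to 2833 genes were higher and 1159 to 2457 lower at rotenone day 10, both maxima without DMSO day 10 replicate 1. Leaving out replicate 1 of day 10 in both treatments, an analysis added after seeing the data, gave 2436 lower. The remaining settings kept both counts within 1.5 times. With the settings used for the results above, higher genes were 57.8% of those called. The share was 62.3% with a mean of at least 50 counts and 53.7% with a length trend removed. It was 50.2% with RLE size factors, 48.2% in DESeq2 and 44.4% without replicate 1 of day 10 in both treatments. With rrn- genes kept, fewer genes were higher (1877) than lower (1954). The excess of higher over lower genes thus depended on the setting. The difference between rotenone and DMSO, 121 genes higher and 6 lower, moved more. Its higher count was 201 with a length trend removed, 77 with a mean of at least 50 counts, 79 with rrn- genes kept, 34 with only the groups compared, and 33 to 267 with 1 library left out. Its lower count was 20 in DESeq2, 15 without replicate 1 of day 10 in both treatments, 12 with a length trend removed, 21 with no filter, 3 with only the groups compared, and 2 to 19 with 1 library left out. On DMSO only the groups compared gave 933 higher and 976 lower. Of the changes of named genes 1 turned direction, that of hsp-6, which passed nowhere: -0.206 to 0.0719 with 1 library left out, 0.0144 without replicate 1 of day 10 in both treatments and 0.0012 with a length trend removed. Over all named genes and settings, 131 calls were lost and 1 gained. The causes were not tested beyond the setting itself. In DESeq2, 15 oocyte and eggshell, 10 glycolysis and gluconeogenesis, 9 replication and 4 nuclear complex I genes were lower, more than 1.5 times the counts given above. Replicate numbers do not pair the 2 ages: deviations of same-numbered rotenone day 10 and day 5 libraries correlated at 0.06, -0.04 and 0.08. Between treatments, same-numbered rotenone and DMSO libraries correlated at 0.43, 0.22 and 0.16 at day 10 and at 0.06, 0.03 and 0.16 at day 5. At day 10 rotenone replicate 2 and DMSO replicate 3 correlated at 0.17, and rotenone replicate 3 and DMSO replicate 2 at 0.24. In the difference, replicate 1 of day 10 thus deviated alike on both plates, but the numbers did not pair replicates 2 and 3. Libraries of day 5 did not deviate together in every pair. A replicate block gave 2294 higher and 1742 lower, and 126 and 8 for the difference. In the simulated data, where nearly all genes were set to no change, 26 of 100 genes with a log2 change of 0.5 were recovered. Small changes were thus often missed there at 3 libraries per group, and the share missed in the data was not measured.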
